A study of Mus musculus with 31 samples.

Results

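Iron uptake, storage and export were followed through 10 genes in sorted Ly6C-high monocytes: the ferritin subunits Fth1 and Ftl1, the ferritin cargo receptor Ncoa4, the transferrin receptor Tfrc, the endosomal reductase Steap3, the metal transporters Slc11a1 and Slc11a2, the exporter Slc40a1, and the RNA-binding regulators Ireb2 and Aco1. They were taken by symbol from a table of 24411 gene entries, and 10 of 10 were found, each in a single row. RNA-seq libraries came from C57BL/6J mice in 3 groups of 3: blood of healthy mice (healthy blood), blood of mice carrying a subcutaneous Lewis lung carcinoma (LLC blood), and the tumors themselves (LLC tumor). LLC is a transplantable mouse lung cancer line. The cells were sorted as CD11b+ Ly6G- Ly6Chi MHC-II-. The labels give no age, sex, tumor size or treatment, and do not say whether mice were pooled or whether blood and tumor came from the same animals, so p-values measure the spread between these libraries, which may be partly technical. The other 22 samples of the series were not analysed here.

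Cells take up transferrin-bound iron through the transferrin receptor, reduce it in the endosome and move it to the cytosol through divalent metal transporters. Iron that is not used at once is stored inside a shell of heavy and light ferritin chains. The only transporter known to export iron ions, as distinct from heme, out of cells is ferroportin, the product of Slc40a1. The regulators encoded by Ireb2 and Aco1 bind iron-responsive elements in mRNAs when iron is scarce, which holds back ferritin translation and protects transferrin receptor mRNA, so that ferritin protein need not follow ferritin mRNA. Monocytes and macrophages are known for recycling iron from red cells and for withholding it from microbes.

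Library totals ran from 10457492 to 20706412 counts. Values below are CPM, counts scaled by the total of all counts in a library, and fold changes are from edgeR's quasi-likelihood fit over 12337 genes, adjusted by Benjamini-Hochberg and called at an adjusted p under 0.05. All 10 members passed the filter on low counts. CPM is not corrected for gene length, so levels are compared within a gene only. The 8 monocyte markers (among them Itgam, Ly6c2, Ccr2 and Csf1r) were each detected in all 3 groups and summed to 24614 to 38054 CPM in blood and 14079 to 18188 CPM in tumor. Lyz2 was the largest part of these sums, with means of 27021 CPM in healthy blood, 17289 CPM in LLC blood and 7912 CPM in tumor. Of the 8, 2 were called higher and 5 lower in tumor than in LLC blood. Among genes of the sorted antigens, Ly6c2 averaged 1153 CPM in LLC blood and 358 CPM in tumor. Itgam, which encodes CD11b, went the other way, from 1439 to 3405 CPM.

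Several libraries held markers of other cells. Fibroblast markers (6 genes, among them Col1a1, Col3a1 and Dcn) summed to 936 to 3921 CPM in the tumor libraries, to 409 CPM in LLC blood 1 and to 1.38 to 15.5 CPM in the other blood libraries. Of these 6, 4 were called higher in tumor than in LLC blood and 6 higher than in healthy blood. The tumor sums were mostly Col3a1 (713, 2801 and 3099 CPM), while that of LLC blood 1 was mostly Col1a1 and Col1a2 (212 and 131 CPM). Within the tumor group each of the 6 was lowest in LLC tumor 1. Mature macrophage markers (10 genes, 7 of them tested) summed to 907 to 1503 CPM in tumor against 326 to 359.6 CPM in blood, with 6 called higher and 1 lower in tumor than in LLC blood and 4 called lower in LLC than in healthy blood, while Cd5l was at 0 counts in all 3 tumor libraries. Epithelial markers (6 genes) reached 63.4 to 102 CPM in tumor and at most 9.79 CPM in blood, with Epcam and Krt19 at 3 counts or fewer in each library. Erythroid markers (13 genes, among them the hemoglobin chains) summed to 169 to 921 CPM in blood and 1.99 to 4.52 CPM in tumor. T and NK cell markers (8 genes) summed to 156 to 384 CPM in healthy blood, 30.6 to 46.2 CPM in LLC blood and 3.37 to 6.83 CPM in tumor, with 7 called lower in LLC than in healthy blood. Dendritic cell markers (6 genes) summed to 41.9 to 50.2 CPM, 21.5 to 33.0 CPM and 5.06 to 8.78 CPM in the same order, with 3 called lower in LLC than in healthy blood. Platelet markers (6 genes) reached 139 to 222 CPM in tumor, against 3.73 to 20.4 CPM in blood. The tumor sum was mostly Pf4 and Ppbp, with tumor means of 100 and 89.4 CPM. Of the 4 platelet markers tested, 2 were called higher and 1 lower in tumor than in healthy blood. Itga2b had a mean of 1.21 CPM in tumor and 4.05 CPM in healthy mice, and Gp9 of 0.0864 and 1.02 CPM. Endothelial markers (6 genes) summed to 55.0 to 72.1 CPM in tumor, mostly Pecam1 (mean 46.8 CPM), against 16.7 to 24.0 CPM in blood. Healthy blood 2 stood apart by B cell markers at 167 CPM, against 17.3 and 24.3 CPM in the other healthy blood libraries. It also stood apart in some neutrophil markers. In healthy blood 1, 2 and 3, S100a9 was at 0.929, 90.7 and 2.51 CPM and S100a8 at 2.93, 61.2 and 4.66 CPM. Other neutrophil markers, Csf3r (540, 543 and 498 CPM) and Mmp8 (171, 180 and 167 CPM), differed little. In bulk libraries, fewer cells of a type and less RNA per cell cannot be told apart, and the part of these other cells in the results below was not tested.

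In the tumor, 6 of the 10 iron genes rose and 2 fell against LLC blood, where 61.3% of all tested genes were called, 29.6% higher and 31.7% lower. The risers were Fth1, Tfrc, Slc40a1, Slc11a1, Ftl1 and Ncoa4, and the genes that fell were Ireb2 and Aco1. The median log2 fold change of the 10 was 0.72, against -0.03 over all tested genes. In 8 of the 10 the libraries of these 2 groups did not overlap, as in 68.3% of all tested genes. Between LLC and healthy blood 1 of the 10 was called, Ireb2, which was higher, beside 23.6% of all tested genes (14.0% higher and 9.61% lower). Against healthy blood, the tumor libraries had 6 members called higher and 1 lower, where 66.5% of all genes were called, 33.5% higher and 33.0% lower, and the libraries did not overlap for 6 members, beside 70.6% of all genes. These 3 comparisons share libraries, so their counts are not independent of each other.

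**Figure D1:**
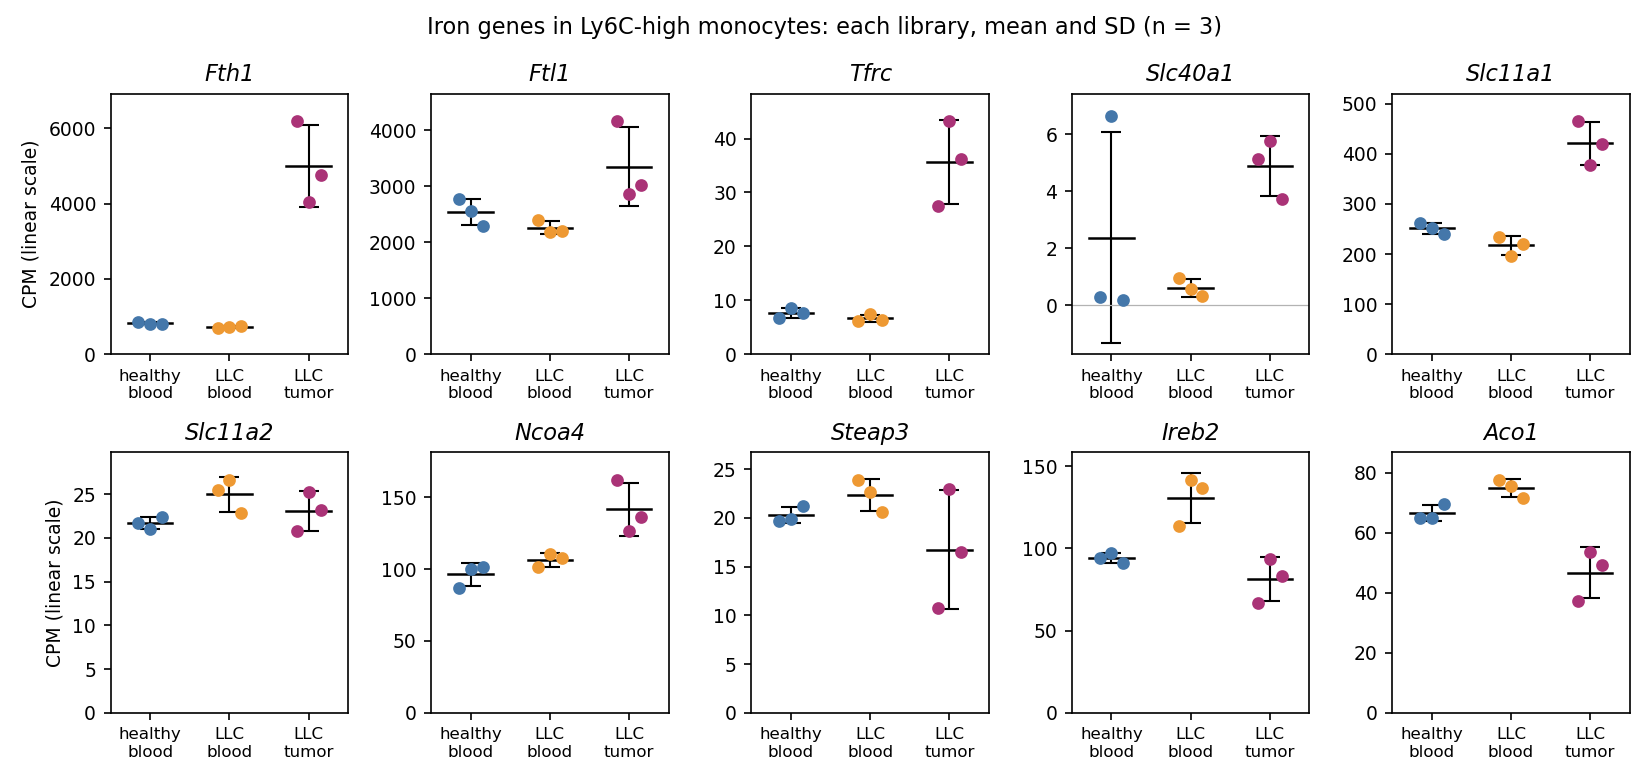
CPM of each of the 10 iron genes (vertical axes, linear, each gene on its own scale) in the 9 libraries, by group. Points are libraries, long bars the mean and whiskers the SD (n = 3). The tumor libraries of Fth1, Ftl1, Tfrc, Slc11a1 and Ncoa4 lie above all 6 blood libraries, and those of Aco1 below all 6.

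The heavy chain of ferritin, Fth1, carries the ferroxidase activity that oxidises iron as it enters the shell. Fth1 was at 864, 813 and 807 CPM in healthy blood, at 708, 726 and 751 CPM in LLC blood, and at 6181, 4053 and 4758 CPM in tumor. Each tumor library lay above each blood library by several fold. The fit put Fth1 8.06-fold higher in tumor than in LLC blood (log2 fold change 3.01 ± 0.22 SE, adjusted p 4.08e-06) and 6.96-fold higher than in healthy blood (2.80 ± 0.22 SE, adjusted p 5.12e-06). Among the 18 alternative analyses the log2 fold change against LLC blood ran from 2.72 to 3.20, and Fth1 was called in each.

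Ftl1 encodes the light chain, which lacks the ferroxidase site and helps the iron core to form. Ftl1 was at 2770.5, 2565 and 2296 CPM in healthy blood, 2391, 2193 and 2198 CPM in LLC blood and 4160.4, 2868 and 3021 CPM in tumor. Its tumor values also lay above all blood values, but by less. The log2 fold change against LLC blood was 0.80 ± 0.21 SE (1.74-fold, adjusted p 0.00894) and that against healthy blood was 0.60 ± 0.21 SE (1.52-fold, adjusted p 0.0301). Without LLC tumor 1, which had the highest Ftl1, these were 0.51 (adjusted p 0.00103) and 0.26 (adjusted p 0.0308). The call against healthy blood was lost in 5 of 18 alternatives, with an adjusted p of 0.0649 when only the 6 libraries compared were fitted, of 0.0530, 0.0830 and 0.106 when healthy blood 1, 2 or 3 was left out, and of 0.0502 without LLC blood 2. Ftl1 had fractional counts in 8 of 9 libraries, as estimated counts do where reads are divided among entries, so its level is uncertain to that extent, while Fth1 had whole counts in all 9.

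The balance of the 2 chains was compared within each library. The ratio of Fth1 counts to Ftl1 counts was 0.312, 0.317 and 0.352 in healthy blood, 0.296, 0.331 and 0.342 in LLC blood and 1.49, 1.41 and 1.58 in tumor. All tumor ratios were above all blood ratios, and the blood groups overlapped. The mean ratio was 4.62-fold higher in tumor than in LLC blood, a difference of 2.21 on the log2 scale, at the smallest p an exact two-sided permutation test of 3 against 3 libraries can give (0.1, or 0.3 adjusted over the 9 ratio tests made). Between LLC and healthy blood the ratio differed by -0.02 on the log2 scale (exact permutation p 0.9). Ferritin transcripts together took 0.292% to 0.363% of all counts in blood and 0.692% to 1.03% in tumor, and Fth1 alone took 0.0708% to 0.0864% in blood and 0.405% to 0.618% in tumor.

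**Figure D2:**
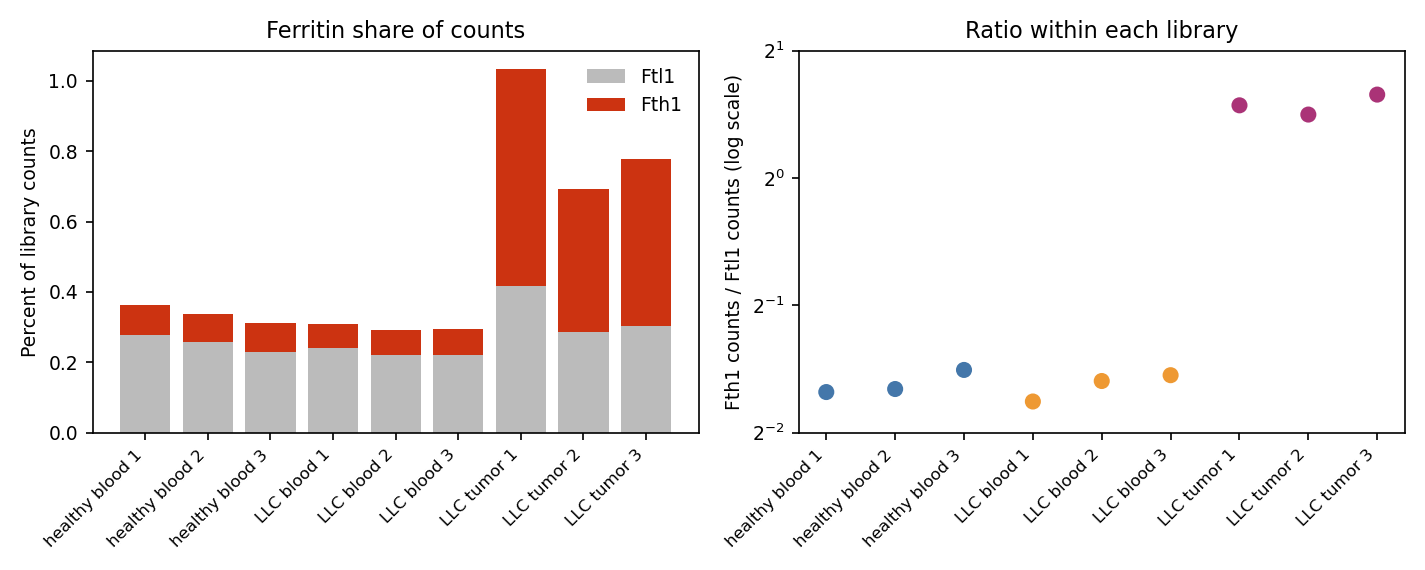
Left, percent of all counts of each library taken by Ftl1 (grey) and Fth1 (red), stacked. Right, ratio of Fth1 to Ftl1 counts on a log2 axis, which is 0.296 to 0.352 in the 6 blood libraries and 1.41 to 1.58 in the 3 tumor libraries.

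The promoters of the pair are shown because their transcripts build the same protein shell and changed by different amounts. Each line gives the 250 bases before an annotated start in RefSeq (GRCm38.p6, the build called mm10 in the submitters' processing notes), with capitals marking ACGTG or GCGTG on either strand, the core that hypoxia-inducible factors are known to bind. For Fth1, which has a second annotated start further upstream, the bases are chr19:9982396-9982645 on the plus strand. For Ftl1 they are chr7:45459887-45460136 on the minus strand.
Fth1: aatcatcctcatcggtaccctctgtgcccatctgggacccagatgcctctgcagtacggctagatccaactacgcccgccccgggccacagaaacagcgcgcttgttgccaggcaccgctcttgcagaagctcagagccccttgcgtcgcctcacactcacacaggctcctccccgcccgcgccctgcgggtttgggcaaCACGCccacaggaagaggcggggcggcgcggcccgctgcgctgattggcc
Ftl1: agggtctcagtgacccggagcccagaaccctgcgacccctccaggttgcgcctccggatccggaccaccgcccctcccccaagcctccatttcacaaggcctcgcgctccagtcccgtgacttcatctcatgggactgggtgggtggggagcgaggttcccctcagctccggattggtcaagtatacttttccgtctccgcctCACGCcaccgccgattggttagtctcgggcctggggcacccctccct
Each held 1 match, read as GCGTG on the opposite strand, which began 50 bases before the start in Fth1 and 47 bases before it in Ftl1. The GC content of these bases was 66.8% in Fth1 and 65.2% in Ftl1.

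Ncoa4, the receptor that carries ferritin to the lysosome for iron release, also rose in tumor. It was at 87.1, 100.3 and 101 CPM in healthy blood, 101, 110.3 and 108 CPM in LLC blood and 162, 127 and 136 CPM in tumor. Again no tumor library overlapped a blood library. The log2 fold change was 0.63 ± 0.16 SE against LLC blood (1.55-fold, adjusted p 0.00611) and 0.75 ± 0.16 SE against healthy blood (1.68-fold, adjusted p 0.00216), and both calls held in 18 of 18 alternatives, with log2 fold changes of 0.43 and 0.50 without LLC tumor 1.

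Among the uptake members, Tfrc, the receptor for transferrin, had the largest fold change. Tfrc was low in blood, at 6.65, 8.66 and 7.66 CPM in healthy mice and 6.12, 7.47 and 6.37 CPM in LLC mice, and reached 27.5, 43.2 and 36.3 CPM in tumor. All 3 tumor libraries were above all 6 blood libraries, and the blood groups overlapped. Tfrc was 6.07-fold higher in tumor than in LLC blood (log2 fold change 2.60 ± 0.14 SE, adjusted p 6.28e-07) and 5.18-fold higher than in healthy blood (2.37 ± 0.14 SE, adjusted p 7.93e-07). Within the tumor group, LLC tumor 1 was highest for Fth1 and lowest for Tfrc. That library had the lowest fibroblast marker sum of the 3 (936 CPM) and a TMM scaling factor of 0.798, against 0.968 and 1.00 in the others, and the part of either in this order was not tested.

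The other members of the endosomal route were not called between tumor and LLC blood. Steap3, the reductase that prepares iron for exit from the endosome, was at 19.7, 19.9 and 21.2 CPM in healthy blood, 23.9, 22.6 and 20.6 CPM in LLC blood and 10.7, 23.0 and 16.5 CPM in tumor. LLC tumor 1 and 3 lay below all blood libraries and LLC tumor 2 among them, and its call was missed in all 3 comparisons (log2 fold change -0.24 in tumor against LLC blood, with a 95% interval of -0.62 to 0.13, adjusted p 0.231). Without LLC tumor 2 it was called lower in tumor, at -0.47 against LLC blood (adjusted p 0.0119) and -0.35 against healthy blood (adjusted p 0.0362). Slc11a2, the endosomal and intestinal metal transporter also known as DMT1, stayed between 20.8 and 26.6 CPM in all 9 libraries. It was not called between tumor and LLC blood (log2 fold change 0.08, 95% interval -0.11 to 0.27, adjusted p 0.405, and -0.11 with scaling by library totals), nor in LLC against healthy blood (0.17, 95% interval -0.02 to 0.36, adjusted p 0.169). Its call against healthy blood (0.26 ± 0.08 SE, adjusted p 0.0224) was lost in 9 of 18 alternatives, with values from 0.09 to 0.30 and adjusted p from 0.0106 to 0.486. Of these, some left out a library (healthy blood 1 or 2, LLC blood 2, LLC tumor 1 or 2), and the others were upper-quartile factors, library totals, no filter on low counts and the reads recovered from the CPM table.

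Slc11a1 encodes NRAMP1, the phagosomal transporter of macrophages that removes iron and other metals from engulfed microbes. It was at 263, 252 and 240.3 CPM in healthy blood, 234, 197 and 220.4 CPM in LLC blood and 465, 377 and 420.2 CPM in tumor. The 3 groups did not overlap, with tumor highest and LLC blood lowest. Slc11a1 was 2.25-fold higher in tumor than in LLC blood (log2 fold change 1.17 ± 0.15 SE, adjusted p 0.000125) and 1.91-fold higher than in healthy blood (0.93 ± 0.15 SE, adjusted p 0.000450). Its lower level in LLC blood was not called (-0.24, 95% interval -0.58 to 0.10, adjusted p 0.277).

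Slc40a1, which encodes ferroportin, had few counts, and its level in healthy blood turned on healthy blood 2. Its counts were 4, 108 and 3 in healthy blood, 10, 8 and 7 in LLC blood and 57, 65 and 43 in tumor, or 0.286, 6.63 and 0.184 CPM, 0.956, 0.553 and 0.338 CPM, and 5.15, 5.76 and 3.72 CPM. The tumor libraries lay above all LLC blood libraries, while healthy blood 2 was above every other library. Against LLC blood the fit gave a log2 fold change of 3.25 ± 1.15 SE (95% interval 0.66 to 5.84, adjusted p 0.0331), and this call was lost without LLC blood 1, 2 or 3 (adjusted p 0.0554, 0.0916 and 0.109) or LLC tumor 2 (adjusted p 0.0609), where the log2 fold change ran from 2.90 to 3.64. The other 7 members called in tumor against LLC blood were called in 18 of 18 alternatives, among them the fit without LLC blood 1. Against healthy blood it was not called by edgeR (1.21 ± 1.00 SE, adjusted p 0.310) but was by limma-voom (2.75, adjusted p 0.0227). Without healthy blood 2 it was 4.48 (adjusted p 0.000320), and the change from healthy to LLC blood turned from -2.04 (adjusted p 0.229) to 1.22 (adjusted p 0.217).

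Of the 10 mature macrophage markers, Cd5l and Timd4 had counts in healthy blood 2 and none in the other healthy blood libraries. Cd5l, a secreted protein of resident macrophages, was at 69 counts in healthy blood 2 and at 0 in healthy blood 1 and 3. Timd4, a receptor by which resident macrophages bind dying cells, was at 46 counts there and at 0 in the other healthy blood libraries. Among healthy blood libraries, C1qb and Vsig4 were also highest in healthy blood 2, but C1qb by little and Vsig4 near the floor of 3 counts. C1qb was at 13.01, 13.58 and 5.89 CPM in healthy blood 1, 2 and 3, and Vsig4 at 1, 4 and 2 counts. Mrc1, C1qa, C1qc, Folr2 and Mertk were not highest there. In the same order, Mrc1 was at 26.4, 16.7 and 22.5 CPM, C1qa at 10.7, 8.42 and 3.13 CPM, and Folr2 at 1.72, 0.737 and 0.184 CPM. C1qc was at 12.08, 8.66 and 3.92 CPM, and Mertk at 0.929, 0.799 and 0.858 CPM. The sum of the list was mostly Adgre1, which was at 289.8, 294 and 298 CPM. In the tumor libraries Cd5l was at 0 and Timd4 at 0 or 1 counts, and Slc40a1 was at 43 to 65 counts. The part of other cells in the Slc40a1 counts was not tested. The ratio of Tfrc to Slc40a1 counts, uptake over export, ranged from 1.30 in healthy blood 2 to 35.9 in healthy blood 3, and its tumor values (5.31, 7.44 and 9.67) lay within that range. This ratio was lower in tumor than in LLC blood by a mean difference of -0.62 on the log2 scale, within the spread of the libraries (exact permutation p 0.3, or 0.54 adjusted).

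**Figure D3:**
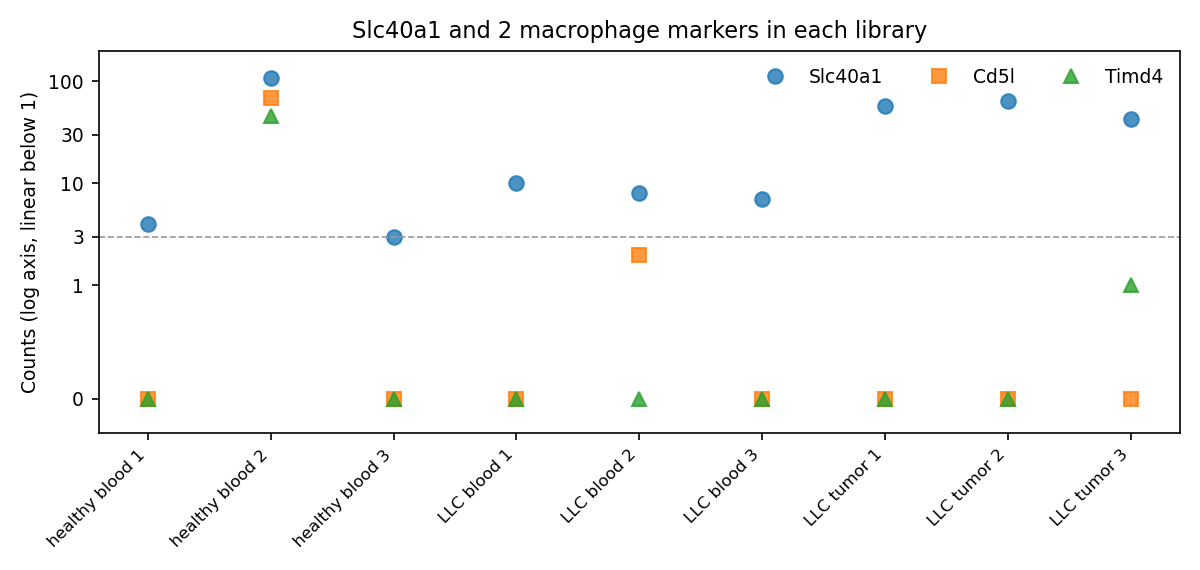
Counts of Slc40a1 and of the macrophage markers Cd5l and Timd4 in each library, on a log axis that is linear below 1, with a dashed line at 3 counts. Healthy blood 2 is the only healthy blood library with Slc40a1 above 4 counts and the only library with Cd5l or Timd4 above 2 counts.

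The regulators fell from LLC blood to tumor. Ireb2, which encodes IRP2, was at 94.4, 97.4 and 91.3 CPM in healthy blood, 114, 142 and 137 CPM in LLC blood and 66.7, 93.3 and 83.3 CPM in tumor. LLC blood was above all other libraries, and tumor overlapped healthy blood. Ireb2 rose in LLC blood by a log2 fold change of 0.44 ± 0.09 SE (1.36-fold, adjusted p 0.00781), the only call among the 10 genes in that comparison, and fell by 0.50 ± 0.09 SE from LLC blood to tumor (adjusted p 0.00106). Both calls held in 18 of 18 alternatives, with log2 fold changes of 0.39 to 0.54 and -0.69 to -0.44. Tumor and healthy blood were not called different (-0.06, 95% interval -0.26 to 0.15, adjusted p 0.603).

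Aco1 encodes IRP1, which works as cytosolic aconitase while it holds an iron-sulfur cluster and binds RNA without one. It was at 64.9, 65.1 and 69.7 CPM in healthy blood, 77.6, 75.5 and 71.7 CPM in LLC blood and 37.2, 53.5 and 49.3 CPM in tumor. Every tumor library was below every blood library. Aco1 fell by 0.50 ± 0.08 SE on the log2 scale from LLC blood to tumor (adjusted p 0.000380) and by 0.35 ± 0.08 SE against healthy blood (adjusted p 0.00266). Its higher level in LLC blood was not called (0.14, 95% interval -0.03 to 0.31, adjusted p 0.200), although the libraries did not overlap. The ratio of Ireb2 to Aco1 counts was 1.45, 1.50 and 1.31 in healthy blood, 1.46, 1.88 and 1.91 in LLC blood and 1.79, 1.74 and 1.69 in tumor. The blood groups overlapped in this ratio (exact permutation p 0.2), and the tumor libraries were above healthy blood (exact permutation p 0.1, or 0.3 adjusted over the 9 ratio tests).

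**Figure D4:**
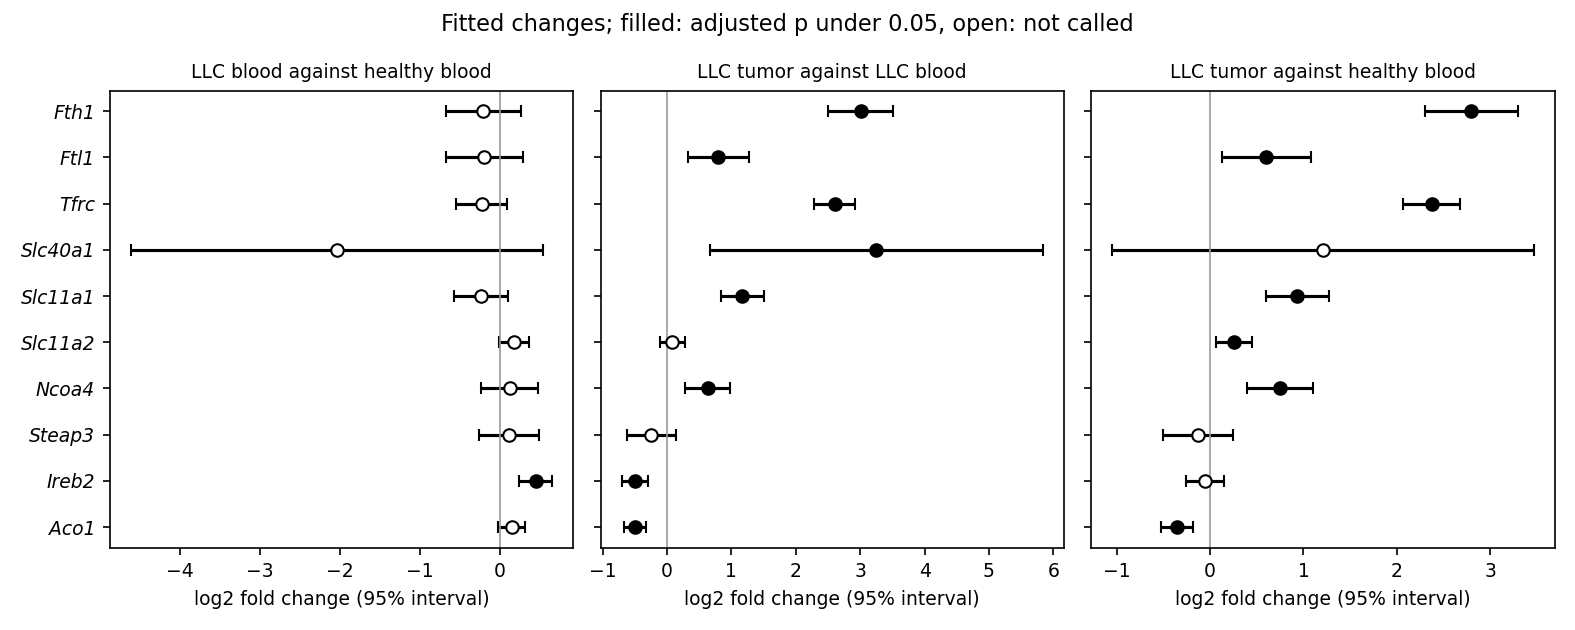
Fitted log2 fold changes (horizontal axes, each with its own range) of the 10 genes with 95% intervals in the 3 comparisons. Filled points have an adjusted p under 0.05: 1 in blood, 8 in tumor against LLC blood and 7 in tumor against healthy blood, with the widest intervals for Slc40a1.

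In LLC blood the other 9 genes had small fitted differences from healthy blood, apart from Slc40a1. Those of Fth1 (-0.21, 95% interval -0.68 to 0.26), Ftl1 (-0.20, -0.67 to 0.28) and Tfrc (-0.23, -0.55 to 0.09) on the log2 scale had intervals that reached further down than up. Ncoa4 (0.12, -0.23 to 0.47) and Steap3 (0.11, -0.26 to 0.48) lay on the other side of 0, and none of these 5 was called. Libraries of the 2 blood groups did not overlap for 5 of the 10 members (Fth1 and Slc11a1 lower, Slc11a2, Ireb2 and Aco1 higher in LLC blood), beside 51.4% of all tested genes. The blood calls differed with the libraries fitted, and the cause was not tested. With only the 6 blood libraries, Fth1 (-0.22, adjusted p 0.0111) and Slc11a1 (-0.25, adjusted p 0.0351) were called lower in LLC blood, and without LLC tumor 1 Ftl1 was called lower too (-0.25, adjusted p 0.0430) beside Fth1 (-0.26, adjusted p 0.0214) and Slc11a1 (-0.29, adjusted p 0.0297).

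RefSeq promoter windows, from 250 bases before to 50 after an annotated start, were found for 8 of the 10 members (15 windows). ACGTG or GCGTG on either strand occurred in a window of 6 of the 8, namely Fth1, Ftl1, Tfrc, Slc11a1, Ncoa4 and Steap3, and in none of the windows of Ireb2 and Aco1. Over all genes with such windows, 46.7% held a match in at least 1 window, and 43.8% of all windows held one. The members had more windows per gene (15 for 8 genes) than all genes (32851 for 27025), which makes a match in at least 1 window likelier. Their 6 of 8 is therefore not like for like with the 46.7%. The windows of Tfrc also overlap and share the ACGTG match printed below. The core of the antioxidant response element, searched as TGACNNNGC on both strands, occurred in a window of 1 member (Ncoa4) and of 14.0% of all genes. The stretches of 30 bases below show 1 match each, in capitals, for Tfrc, Slc11a1 and Ncoa4, which also rose in tumor. Tfrc and Ncoa4 hold further matches that are not printed. They lie at chr16:32608881-32608910 for Tfrc, chr1:74375188-74375217 for Slc11a1 and chr14:32165767-32165796 for Ncoa4, all on the plus strand.
Tfrc: cctcggtaggtgtACGTGcggaaggaagtg
Slc11a1: ggggatgggaaggGCGTGggttcccactct
Ncoa4: acctggccgtcgaGCGTGttctcgcagcag
The matches shown began 2 bases before an annotated start in Tfrc and Slc11a1 and 9 bases before one in Ncoa4, where another match lay nearer a different annotated start. A match is a string of letters and not a measured binding site.

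Other genes of iron handling were taken from 5 lists with 59 genes, of which 59 were in the table and 47 were tested. In tumor against LLC blood 12 of the 47 rose and 15 fell, beside 29.6% and 31.7% of all tested genes, with a median log2 fold change of 0.12 against -0.03 over all tested genes. In LLC against healthy blood 8 rose, 7 fell and 32 were not called (median -0.06, beside 14.0% higher and 9.61% lower over all genes). In tumor against healthy blood 12 rose and 12 fell (median -0.02, beside 33.5% higher and 33.0% lower over all genes). The counts of each list below are read against the same shares, and none is called particular to its list. The hepcidin genes Hamp and Hamp2, the hepcidin regulators Hfe2, Bmp6 and Tmprss6, and the ferroxidase Heph were too low to be tested.

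Among uptake genes outside the members, 2 of 10 tested rose and 3 fell from LLC blood to tumor, where 29.6% and 31.7% of all tested genes did. Slc39a14 (ZIP14), which imports iron that is not bound to transferrin, rose from 7.85 ± 2.41 CPM (SD, n = 3) to 156 ± 18.5 CPM, a log2 fold change of 4.49 ± 0.18 SE (adjusted p 2.08e-07). Hfe, which binds the transferrin receptor, fell by 1.76 ± 0.10 SE on the log2 scale (adjusted p 6.94e-07). Lcn2, which binds iron-carrying siderophores, averaged 66.2 ± 26.6 CPM in LLC blood and 23.0 ± 11.7 CPM in tumor, and fell by 1.37 ± 0.43 SE (adjusted p 0.0194). Against healthy blood, 4 of the 10 rose and 2 fell in tumor, beside 33.5% and 33.0% of all genes, and the largest changes among those averaging 20 CPM or more were in Slc39a14 (log2 fold change 5.40), Lrp1 (1.51) and Hfe (-1.47). Steap2, a metalloreductase that fell outside the 20 CPM rule and was picked out after its values were seen, had 99, 542 and 543 counts in LLC tumor 1, 2 and 3 and at most 2 counts in any blood library (adjusted p 1.16e-05 against LLC blood). The fibroblast marker sum of the tumor libraries, 936, 3467 and 3921 CPM, was likewise lowest in LLC tumor 1, and its part in the Steap2 counts was not tested. In blood, 5 of these 10 rose and 1 fell in LLC mice, beside 14.0% and 9.61% of all genes, with Lcn2 (3.46 ± 0.47 SE, adjusted p 0.00123) and Lrp1, a receptor for heme-bound hemopexin among other ligands (1.26 ± 0.10 SE, adjusted p 0.000100), the largest rises among those averaging 20 CPM or more. Trf, which encodes transferrin, fell by 0.95 ± 0.19 SE (adjusted p 0.00773). Neutrophil markers, whose list of 11 genes shares Ltf with this one, ranged in sum between 675 and 902 CPM in healthy mice and between 790.2 and 1261 CPM in LLC mice, with 4 called higher, and their part in the rise of Lcn2 was not tested.

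Of the heme iron genes, 2 of 8 tested rose and 2 fell from LLC blood to tumor, beside 29.6% and 31.7% of all tested genes. Hmox1, heme oxygenase, which frees iron from heme, averaged 105 ± 8.05 CPM in LLC blood and 967 ± 253 CPM in tumor, a rise of 3.44 ± 0.26 SE on the log2 scale (adjusted p 4.42e-06). Haptoglobin (Hp), which captures free hemoglobin, fell from 1094 ± 21.6 to 265 ± 25.5 CPM (-1.85 ± 0.10 SE, adjusted p 5.63e-07). Mfsd7b, the table's symbol for the heme exporter Flvcr1, fell from 145 ± 4.83 to 46.3 ± 1.89 CPM (-1.44 ± 0.07 SE, adjusted p 5.06e-07). The same genes led against healthy blood, with log2 fold changes of 3.06 for Hmox1, -1.43 for Hp and -1.27 for Mfsd7b. In LLC against healthy blood 1 of the 8 rose, Hp (0.42 ± 0.09 SE, adjusted p 0.0118), and 1 fell, Blvrb, a biliverdin reductase (-0.70 ± 0.16 SE, adjusted p 0.0147). Cp, the ferroxidase ceruloplasmin that works beside ferroportin, was the only tested gene of the export and hepcidin list, and it rose from 4.65 ± 1.27 to 46.1 ± 31.2 CPM (3.47 ± 0.52 SE, adjusted p 0.000303), and by 3.34 against healthy blood. Its tumor libraries were at 11.5, 72.0 and 54.8 CPM, lowest in LLC tumor 1, where the fibroblast marker sum was also lowest (936, 3467 and 3921 CPM), and the part of fibroblasts in its rise was not tested.

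Of the 6 tested cytosolic chaperone and turnover genes, 1 rose and 1 fell from LLC blood to tumor. Herc2, a ubiquitin ligase known to act on the ferritin receptor Ncoa4, rose in LLC blood (1.06 ± 0.12 SE, adjusted p 0.000427) and fell from there to tumor (-0.39 ± 0.12 SE, adjusted p 0.0148). The poly(C)-binding iron chaperones Pcbp2 and Pcbp1 fell in LLC blood by 0.43 ± 0.09 SE (adjusted p 0.00954) and 0.24 ± 0.08 SE (adjusted p 0.0485). Against healthy blood, Herc2 (0.66) and Fbxl5 (0.44), which marks IRP2 for degradation, rose in tumor and Pcbp2 (-0.31) fell. Among 22 mitochondrial and heme synthesis genes, 6 rose and 9 fell in tumor against LLC blood, beside 29.6% and 31.7% of all tested genes. Isca1, an iron-sulfur cluster assembly factor, rose by 1.57 ± 0.19 SE (adjusted p 8.10e-05), and Alas1, the first enzyme of heme synthesis, by 0.83 ± 0.08 SE (adjusted p 2.54e-05). Against healthy blood 3 of the 22 rose and 7 fell, with Isca1 at 1.24 and Alas1 at 1.09. In LLC blood the mitochondrial carriers Slc25a28 and Slc25a37, the mitoferrins, fell by 0.56 ± 0.12 SE (adjusted p 0.00971) and 0.38 ± 0.11 SE (adjusted p 0.0320), as did Slc25a39 (-0.37 ± 0.09 SE, adjusted p 0.0179).

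**Figure D5:**
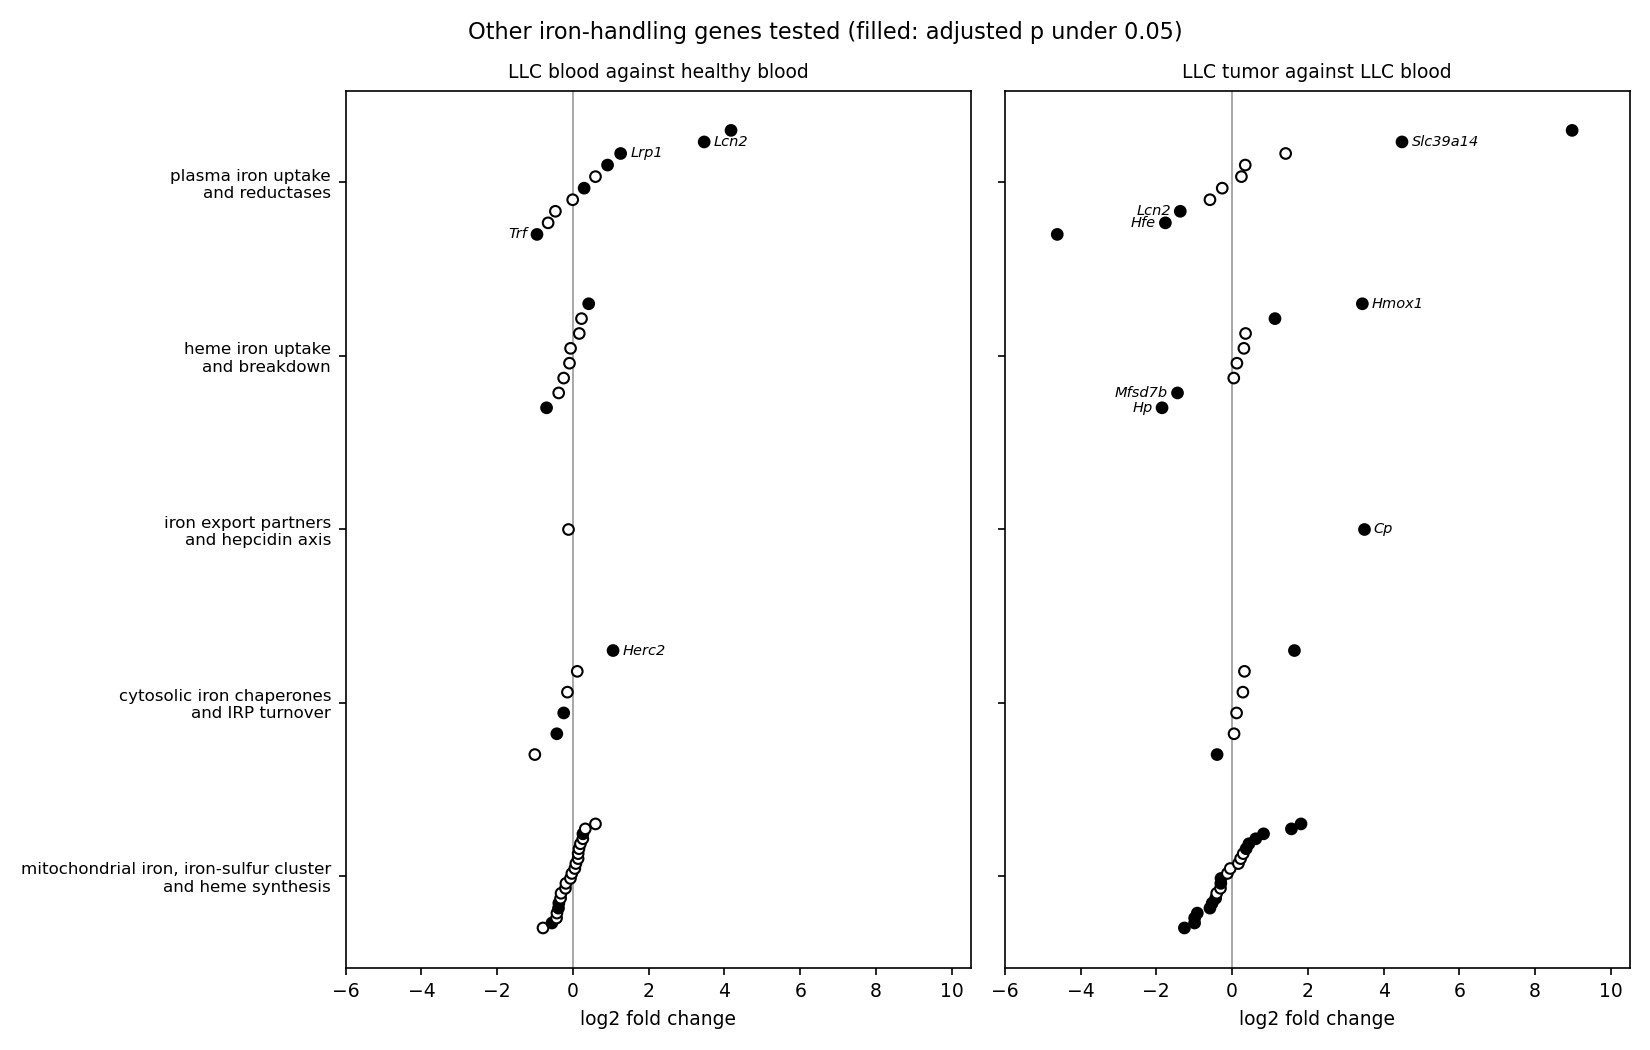
Log2 fold changes (horizontal axis) of the 47 tested genes of the 5 other iron lists (rows; points within a row are spread vertically in order of value). Filled points have an adjusted p under 0.05, and names mark the larger changes among genes averaging 20 CPM or more, outside the mitochondrial row, such as Slc39a14 at 4.49 and Hmox1 at 3.44 in tumor against LLC blood.

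For 4 members, the genes with the most similar pattern over the 9 libraries were sought among 6904 tested genes that averaged 20 CPM or more, by the root mean square difference of mean-centred log2 CPM. Fth1 was closest to Slc3a2 (0.07), an amino acid transporter subunit, 1700017B05Rik (0.11) and the transcription factor Runx3 (0.12). Tfrc was closest to Pi4k2b (0.10), Appl2 (0.22) and Clip2 (0.22), and Slc11a1 to Agpat4 (0.07), Il10rb (0.08) and Selenbp1 (0.09). Slc40a1 had no close match, with Hsph1 (0.79), Pecam1 (0.83) and Cgnl1 (0.87) the nearest. These differences are on the log2 scale, and likeness of pattern over 9 libraries in 3 groups says nothing of shared function.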

How the data were processed

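RNA-seq counts of 9 libraries were analysed. The authors deposited estimated read counts (expected counts, not normalized, from the values) and a CPM table (unit taken from its values) of 10693 genes; the submitters' processing notes name Trim Galore, cutadapt, STAR, Salmon and edgeR without their roles, and the build mm10. Column heads with the letters BM were read as blood monocyte, as the sample titles name blood. The CPM values gave whole reads (within 0.01 reads) for 100% of genes and libraries. Counts were rounded and fitted with edgeR 4.0.16 (R 4.3.3; TMM, filterByExpr, group as the only term, all 9 libraries in 1 fit), with Benjamini-Hochberg adjustment over 12337 genes. No 2 libraries of a group agreed within counting noise. The fit was tested on simulated data. Ratios used counts plus 0.5 and exact permutation tests.

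The 10 members, the other iron lists, the marker lists and the tests were chosen with earlier results of these data known, as were the motifs and the promoter stretches shown. All members are named; from each other iron list and comparison, so are the up to 3 called genes with the largest absolute log2 fold change that averaged 20 CPM or more in the compared libraries, and the 3 genes most like each of 4 members. Of the genes this rule picks, 1 is not reported here. Markers named were taken from the lists as examples. Alternatives were limma-voom (limma 3.58.1), DESeq2 1.42.0, other scalings, no filter, other sample sets and the replicate block. ATAC-seq, CUT&Run and CUT&Tag samples were not used here.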

Additional observations from a re-analysis of the deposited data

How the results depend on the processing

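Of 539 values of single members under alternatives, 509 kept their direction and their side of the threshold, 18 lost a call, 9 gained one and 3 reversed. The reversed values were Slc40a1 in LLC against healthy blood, which ran from -2.58 to 1.22 over fits leaving out 1 library, Steap3 in tumor against healthy blood, which ran from -0.35 to 0.0065, and Slc11a2 in tumor against LLC blood with library totals (-0.11); the cause was not tested. With only the 6 blood libraries, 4889 genes were called (2478 higher, 2411 lower) in place of 2917, and 3 iron members (1 higher, 2 lower) in place of 1. Leaving out 1 library gave 1494 (without LLC blood 2) to 5064 genes (without LLC tumor 1) and 1 to 4 members in that comparison, 6896 to 8636 genes and 7 to 8 members in tumor against LLC blood, and 7571 to 9423 genes and 5 to 7 members in tumor against healthy blood.

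Over the same fits the log2 Fth1 to Ftl1 ratio differed between blood groups by -0.060 to 0.044, and that of Ireb2 to Aco1 between tumor and LLC blood by -0.12 to 0.07. That of Tfrc to Slc40a1 differed by -1.29 to 1.10 between blood groups and by -1.91 to 0.48 between tumor and healthy blood, where a pseudocount of 5 gave 0.15 in place of -0.45. Scaling by library totals moved the median of all genes to -0.23 in tumor against LLC blood (2859 higher, 5007 lower) and -0.17 against healthy blood (3377 higher, 4946 lower). Upper-quartile factors gave 1490 higher and 1727 lower in LLC against healthy blood, in place of 1732 and 1185.

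Fits with a replicate block called 2788, 7455 and 8092 genes and 1, 8 and 7 members in the 3 comparisons and changed no member's call. The labels do not say whether the replicate numbers pair the samples. Correlations of deviations from the group mean between same-numbered libraries were 0.297, 0.181 and 0.073 between the blood groups. They were -0.078, 0.120 and -0.137 between tumor and LLC blood, and 0.076, 0.050 and 0.092 between tumor and healthy blood. Not every library correlated best with its own number. With 3 libraries per group these correlations cannot decide whether animals or batches were shared. A floor of 3 counts corresponds to 0.145 to 0.287 CPM, and Slc40a1 was at 3 to 10 counts in 5 of the 6 blood libraries.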
